A study of Bos grunniens with 36 samples.

Results

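The comparison described here sets the yak mammary gland at 15 days after calving against the same animals 1 day after calving, the interval over which colostrum gives way to mature milk. It uses 8 of the 36 samples of the series, 4 at day +15 and 4 at day +1, chosen by the day that the sample titles give and paired by the yak number in those titles. The series followed 4 female yaks (Bos grunniens) by biopsy at 9 days, from 30 days before to 240 days after calving, and every group is defined by day alone: the labels name no treatment, genotype or age. About 1 g of parenchyma was taken at each time, from the left and the right rear gland in turn. The side of each sample is not given in the sources used here, so a day and a side may go together within an animal, and the part of the side in the differences was not tested. Each sample was hybridised in 1 colour (Cy3) to an Agilent bovine expression array, a cattle design with probes of 60 bases. The value table gives log2 levels on which 0 is the 75th percentile of each array, and 20110 genes were measured by 1 probe each.

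In the days around calving the gland secretes colostrum, a fluid rich in antibodies and defence proteins. The epithelium then closes its junctions and turns to copious secretion of milk, whose main solids are caseins, lactose and fat globules. Caseins are packed in Golgi vesicles with calcium and phosphate. Lactose is made in the same compartment from glucose and galactose by the pair LALBA and B4GALT1. Fat droplets leave the cell wrapped in membrane that carries butyrophilin (BTN1A1) and xanthine dehydrogenase (XDH).

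The probes of 5 genes on which the account turns are identified here by their first 30 bases, read from the array files, with probe positions on the cattle assembly UMD 3.1. CSN2 is β-casein and LALBA is α-lactalbumin, the major milk products. AGPAT9, an acyltransferase of glycerolipid synthesis, ERBB3, a receptor for neuregulin, and CXCL17, a mucosal chemokine, were called in the test described below. The CSN2 probe spans 87179783 to 87180572 of chromosome 6, which is longer than the probe itself, and the other 4 are unbroken on the assembly.
CSN2, chr6:87179783-87180572, minus strand: aatgccccctcctcacttttgaattgactg
LALBA, chr5:31349809-31349868, plus strand: tcgatgtccctgatggcgcttttaatgcaa
AGPAT9, chr6:100141518-100141577, plus strand: tcagagtgttatttctcttctgggaaccat
ERBB3, chr5:57539974-57540033, minus strand: cagcttcagacctctgtccctttggatggg
CXCL17, chr18:51830900-51830959, minus strand: ggtcctcccgactgtaaacacaagcaggaa

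Several features of the 8 arrays bear on all that follows. Each of the 36 columns of the value table equalled 1 scanned array exactly, up to its scaling constant, but in all 36 cases the files place that array with a different sample, and with the same day in only 9. The day labels of the value table are used here, and with the record of the scanner files 0 genes were called (limma, 518 at an unadjusted p under 0.05). By the table's record each of the 9 slides held a single day, so slide and day cannot be told apart. Brightness also moved with day: the 75th percentile of signal was 2080 to 5355 at day +1 and 1026 to 2109 at day +15, and 78.3% to 86.0% against 77.6% to 80.2% of spots were well above background. The day +1 array of animal 4 stood apart. It had a signal of 2080, a mean correlation of 0.959 with the other day +1 arrays and of 0.971 with the day +15 arrays, and its closest array was that of the same animal at day +240 (r = 0.986, rank 3 of 630 pairs). The part of brightness and slide in the results was not tested further.

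Tissue identity was checked on the markers listed for each cell type. All 8 luminal epithelial markers were well above background on all 8 arrays, with a mean level of 3.79 to 4.31 at day +1 and 4.60 to 4.79 at day +15. The set includes the milk product genes CSN2 and LALBA, with differences of 2.07 and 1.87, its largest. Of the others, KRT18 stood at −0.90, KRT8 at −0.47 and EPCAM at 0.01. KRT19, EHF and ELF5 stood at 0.64, 0.48 and 1.05. The 5 myoepithelial markers measured were also above background throughout, at 3.03 to 3.70 and 2.23 to 3.35. Fibroblast markers averaged 3.26 to 3.87 and 2.63 to 4.06. Endothelial, macrophage and T cell markers were detected at lower levels, and the ranges of both days overlapped for each. In whole tissue, fewer cells of a type and less RNA per cell cannot be told apart.

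The difference between the days was tested for every gene with limma in a fit of all 36 arrays, with day as the fixed term, a random block for animal, and Benjamini-Hochberg adjustment over all 20110 genes. At an adjusted p under 0.05, 36 genes rose (0.179% of those tested) and 28 fell (0.139%), 64 in all (0.318%). That fit shares 1 estimate of the spread over all 9 days, and the median SD of a gene among the 4 animals was 0.31 at day +1 and 0.32 at day +15 but 0.50 to 0.58 at days +120, +180 and +240. Fitted on the 4 pairs alone, with animal as a fixed block, limma called 2811 genes (14%), of which 1894 rose (9.42%) and 917 fell (4.56%). All 64 genes of the 36-array fit were among them. A fit of days −30 to +30 alone gave 3014 genes (15%), 2055 higher (10.2%) and 959 lower (4.77%). The 4 values of a day lay wholly above or wholly below those of the other in 3082 genes (15.3%), higher at day +15 in 2122 (10.6%) and lower in 960 (4.77%). Below, "the 36-array fit" and "the 4 pairs" name these tests, and adjusted p-values are limma's. Both counts rested on every animal: the 36-array fit called 0, 0, 0 and 15 genes without animals 1, 2, 3 and 4, and the 4 pairs called 14, 0, 0 and 362. Without the day +1 array of animal 4 alone, the 36-array fit called 475 genes. The biopsies come from the same 4 animals, so p-values describe these animals.

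The overall shift depended on the level of the gene. The median difference over all genes was 0.09 (log2), and 56.8% of genes had a positive difference. With the genes ranked by mean level and cut into 10 bins of 2011, the median was 0.47 in the top bin and −0.03 to 0.06 in bins 4 to 8. Quantile normalization, which gives all arrays the same distribution and so removes a shift of the whole top of the range by its construction, brought the median of the top bin to 0.05. With it the 4 pairs gave 1530 genes (7.61%), 893 higher (4.44%) and 637 lower (3.17%). The main groups are therefore given below on both scales. Of the 46 lists considered, the median changed sign in 2 after quantile normalization (ribosomal proteins and MHC class II), in 3 after median centring, in 4 after normexp background correction, in 15 with brightness as a covariate and in 28 by the scanner files' record. The directions below therefore hold for the day labels of the value table, and by the scanner files' record the lists of milk proteins, fatty acid, triacylglycerol, fat globule, cholesterol, lactose, ribosome, respiration and secretion genes all had a median below 0.

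**Figure D1:**
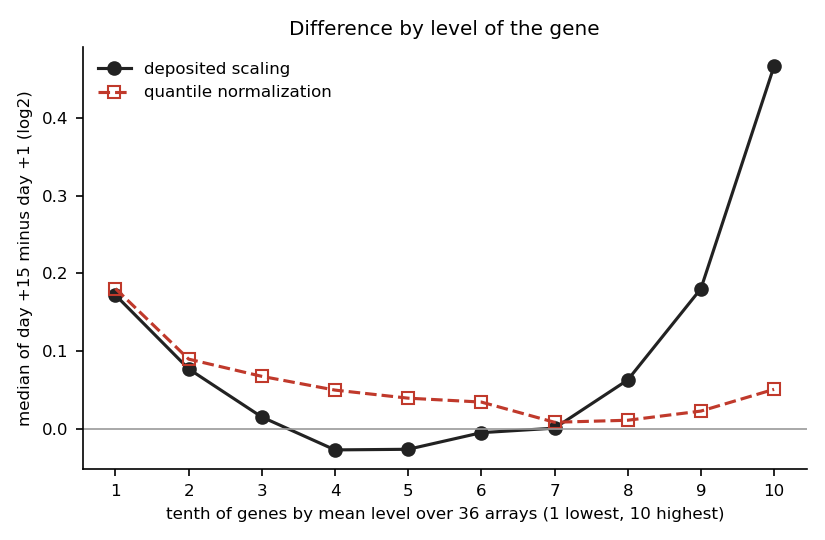
Median day +15 minus day +1 difference (log2, vertical axis) for genes cut into 10 bins of equal size by mean level over the 36 arrays (horizontal axis), with the deposited scaling (filled circles) and after quantile normalization (open squares). The top bin stands at 0.47 on the deposited scale and 0.05 after quantile normalization.

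Among the rises called in the 36-array fit, that of MST1R was the largest for a gene with a symbol. MST1R, the receptor for macrophage-stimulating protein, read −4.35, −4.17, −3.36 and −2.03 in animals 1 to 4 at day +1 and −1.49, 0.41, −1.65 and −0.38 at day +15. All 4 values at day +15 were above all 4 at day +1. The difference was 2.70 ± 0.56 (SE, n = 4 against 4, adjusted p = 0.0343), a 6.49-fold rise. FGR, a Src-family tyrosine kinase of myeloid cells, went from −2.20, −1.75, −1.54 and −0.59 to 0.56, 1.18, 0.15 and 1.01, again without overlap, a rise of 2.25 ± 0.38 (adjusted p = 0.0119). FBXO10, a substrate receptor of a ubiquitin ligase, rose by 2.29 ± 0.52 (adjusted p = 0.0487) in all 4 animals, although its day +1 value in animal 4, −2.23, lay within the day +15 range of −2.67 to 0.08. Its 3 probes gave 0.64 to 2.29.

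PHGDH, the first enzyme of serine synthesis, read −0.16, 0.45, 0.13 and 0.23 at day +1 and 1.06, 1.90, 1.64 and 2.55 at day +15, a rise of 1.63 ± 0.36 (adjusted p = 0.0482). AGPAT9 read −3.95, −3.49, −3.54 and −3.23 and then −2.07, −1.30, −2.25 and −2.28, a rise of 1.58 ± 0.27 (adjusted p = 0.0119), and its 3 probes gave 0.91 to 1.58. It was the only called member of the triacylglycerol list. BOLA3, which helps assemble iron-sulphur clusters in mitochondria, rose by 1.63 ± 0.38. DHODH, the mitochondrial enzyme of pyrimidine synthesis, rose by 1.11 ± 0.22, to −0.30, −0.09, −0.35 and −0.27 at day +15. CHCHD10, a protein of the mitochondrial intermembrane space, rose by 1.19 ± 0.27, and HIGD1D by 1.19 ± 0.26. MMACHC, which processes vitamin B12, rose by 0.99 ± 0.21. NIP7, a ribosome biogenesis factor, rose by 0.97 ± 0.22, and the translation factor gene EIF1AY, whose probe lies on chromosome X, by 1.29 ± 0.25. The 2 probes of NIP7 gave 0.26 and 0.97. The other 3 genes of the 15 largest rises were OTOP3, a proton channel, at 1.35, CAMK2N2, an inhibitor of CaM kinase, at 1.24, and TMEM128 at 1.03. MRPL33, a subunit of the mitochondrial ribosome, rose by 0.87 ± 0.19, NDUFA12, a subunit of complex I, by 0.66 ± 0.14, and SRP19, a subunit of the signal recognition particle, by 0.80 ± 0.18. These 3, with AGPAT9, EIF1AY and ERBB3, were all the called members of the 46 lists considered.

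**Figure D2:**
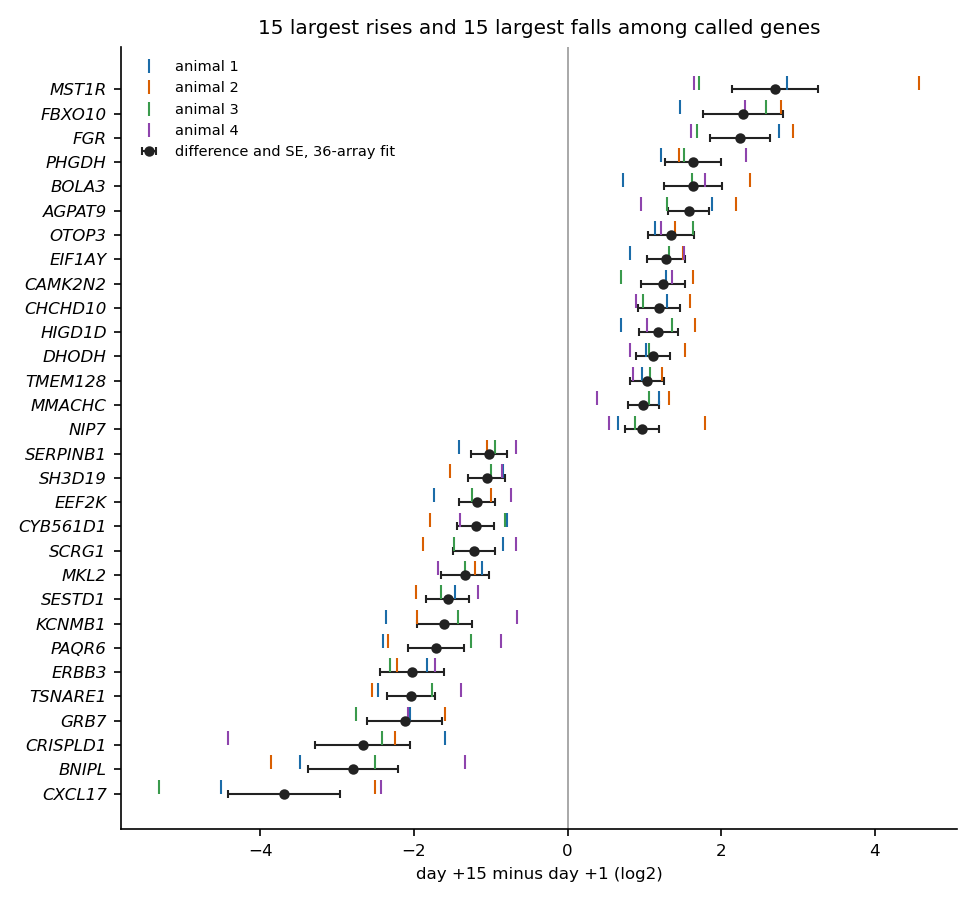
Day +15 minus day +1 difference (log2, horizontal axis) for the 15 largest rises and 15 largest falls among genes called in the 36-array fit. Circles with bars give the estimate and SE, and coloured ticks the difference in each of the 4 animals. All 4 animals changed in the same direction for every gene shown, as the rule for naming them required.

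The largest fall of a gene with a symbol in the 36-array fit was that of CXCL17. It read 1.37, −0.68, 1.88 and −0.82 at day +1 and −3.14, −3.19, −3.44 and −3.25 at day +15. Day +1 was spread over 2 levels, with animals 1 and 3 high, and day +15 was uniform. The fall was −3.69 ± 0.73 (adjusted p = 0.0331), 12.9-fold, and its 2 probes gave −3.69 and −2.62. BNIPL read 1.31, 1.27, 0.39 and −1.18 and then −2.18, −2.60, −2.12 and −2.52, a difference of −2.80 ± 0.59 (adjusted p = 0.0349). CRISPLD1, a secreted protein with a CAP domain, differed by −2.67 ± 0.61 (adjusted p = 0.0487).

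ERBB3, which signals as a partner of ERBB2, read 3.22, 2.97, 3.06 and 2.79 at day +1 and 1.39, 0.74, 0.74 and 1.06 at day +15. The groups were far apart and tight, with an SD of 0.18 and 0.31, and the difference was −2.03 ± 0.42 (adjusted p = 0.0343), a 4.07-fold fall seen by all 3 of its probes. GRB7, an adaptor protein that binds receptors of the ERBB family, fell with it: 0.58, −0.64, 0.56 and −0.53 became −1.48, −2.23, −2.20 and −2.61, a difference of −2.12 ± 0.49 (adjusted p = 0.0487). EGFR, of the same receptor family, had a difference of −0.96 and was not called in either test.

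KCNMB1, the β subunit of the smooth muscle calcium-activated potassium channel, went from 2.08, 1.62, 1.72 and 0.38 to −0.28, −0.34, 0.29 and −0.27, a difference of −1.60 ± 0.36 (adjusted p = 0.0487). MKL2, a coactivator of serum response factor, differed by −1.33 ± 0.31, but its second probe gave 1.20, so its direction is uncertain. SESTD1 differed by −1.56 ± 0.28, TSNARE1 by −2.04 ± 0.32 and PAQR6 by −1.72 ± 0.37. EEF2K, the kinase that inactivates elongation factor eEF2 and so slows translation, read 0.65, −0.35, 0.25 and −0.57 at day +1 and −1.09, −1.34, −0.99 and −1.31 at day +15, a difference of −1.18 ± 0.24 (adjusted p = 0.0343). The remaining 4 of the 15 were SCRG1 at −1.22, CYB561D1 at −1.20, SH3D19 at −1.05 and SERPINB1, an inhibitor of neutrophil elastase, at −1.02.

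Milk protein genes were higher at day +15 in every animal on the deposited scale. From here to the muscle markers, SEs and adjusted p-values are those of the 4 pairs unless another test or scale is named. Apart from the called members named above, no listed gene passed the 36-array fit. CSN2 read 5.93, 5.10, 5.79 and 6.94 at day +1 and 7.79, 8.18, 8.0 and 8.07 at day +15. Animal 4 was already the highest at day +1 and animal 2 the lowest, and at day +15 the 4 glands lay close together. The difference was 2.07 ± 0.31 in the 4 pairs (adjusted p = 0.0235). In the 36-array fit its SE was 1.48 and its adjusted p 0.43. LALBA went from 5.33, 4.40, 5.39 and 6.59 to 6.94, 7.35, 7.09 and 7.82, by 1.87 ± 0.29 in the 4 pairs (adjusted p = 0.0241). CSN1S1 differed by 2.18, CSN1S2 by 2.36, CSN3 by 2.21 and PAEP, β-lactoglobulin, by 1.91. With the mucin-like GLYCAM1, all 7 listed genes were called higher in the 4 pairs, and the 2 days did not overlap for any. Over all genes, 9.42% were called higher in the 4 pairs and 10.6% lay wholly higher at day +15. None was called in the 36-array fit. On the quantile scale, however, the median of the 7 fell from 2.07 to 0.13 and none was called in the 4 pairs, with CSN2 at −0.01. All 7 lie in the top bin of genes by level. With array brightness as a covariate the list's median was −0.95, and by the scanner files' record −1.55.

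**Figure D3:**
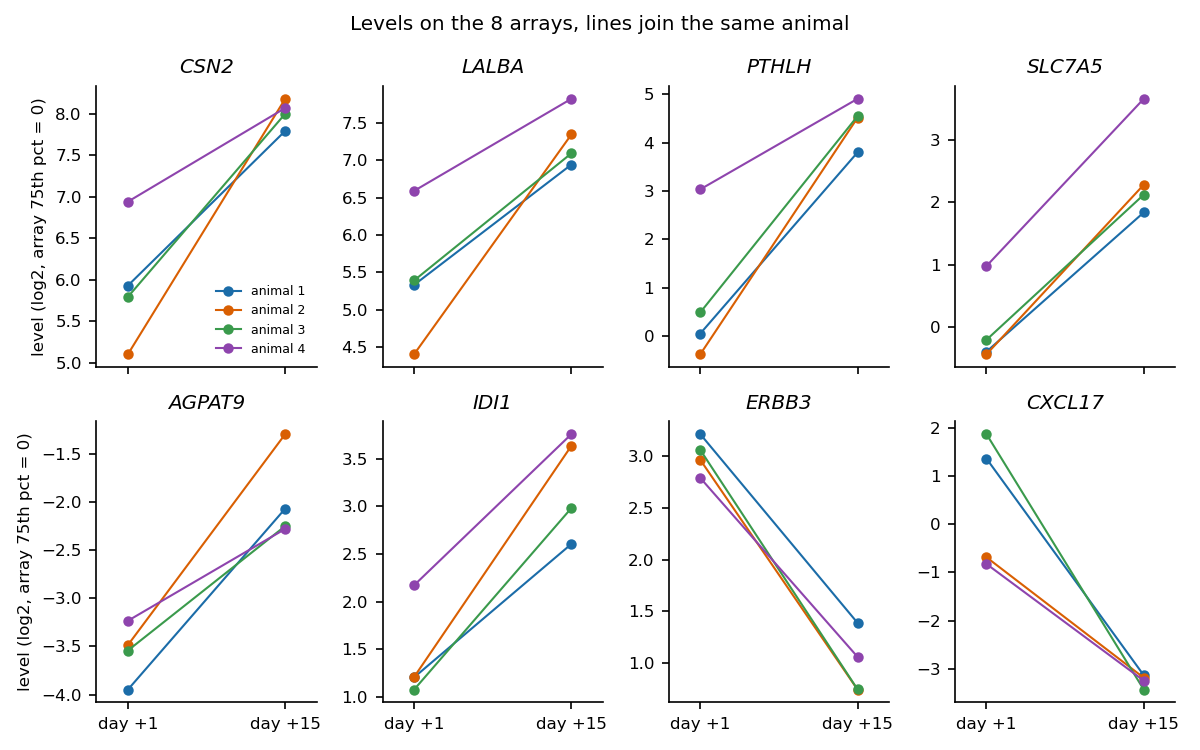
Levels (log2, 0 = 75th percentile of the array, vertical axes) of 8 genes at day +1 and day +15, with a line joining the values of each animal. The top row shows CSN2, LALBA, PTHLH and SLC7A5, and the bottom row AGPAT9, IDI1, ERBB3 and CXCL17. All 4 lines rise in the first 6 panels and fall in the last 2, and animal 4 is the highest at day +1 in the top row.

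Most rises among enzymes of cholesterol synthesis were also called on the quantile scale. Of 22 measured, 14 rose in the 4 pairs and none fell, against 9.42% of all genes that rose, and 10 of those 14 were called again on the quantile scale. The median difference was 1.18, and 0.55, 1.55, 1.26 and 1.03 in animals 1 to 4. On the quantile scale it was 1.09. IDI1, the isomerase that makes the second isoprenoid unit, read 1.20, 1.21, 1.08 and 2.17 at day +1 and 2.61, 3.64, 2.98 and 3.76 at day +15. The groups did not overlap, and the difference of 1.83 ± 0.21 in the 4 pairs had an adjusted p of 0.0204, against 0.0929 in the 36-array fit. CYP51A1 differed by 1.79 ± 0.39 (adjusted p = 0.0377), and by 1.77 on the quantile scale, where it was not called (adjusted p = 0.055). The called members also included HMGCS1, near the entry of the pathway, at 1.26, FDPS at 1.57, SQLE at 1.24, LSS at 1.59 and DHCR7 at 1.54. INSIG1, the sterol sensor that retains the SREBP complex in the endoplasmic reticulum and is itself an SREBP target, read −0.32, −0.88, 0.38 and 1.38 and then 1.83, 2.67, 1.81 and 2.28. It rose by 2.01 ± 0.42 (adjusted p = 0.0348). In the 17 genes of lipogenic control, 3 rose (17.6%, against 9.42% of all genes) and none fell. They were INSIG1, THRSP, a nuclear factor of lipogenesis, by 1.21 ± 0.30, and the coactivator PPARGC1A by 0.96 ± 0.19. On the quantile scale PPARGC1A was called (adjusted p = 0.0411), and INSIG1 (adjusted p = 0.055) and THRSP (adjusted p = 0.0636) were not. None of the 22 enzymes nor these 17 genes passed the 36-array fit.

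LPL, which frees fatty acids from blood lipoproteins, read 0.88, 0.13, 1.62 and 4.32 at day +1 and 3.84, 4.68, 4.49 and 5.42 at day +15. Animal 4 at day +1 was within the day +15 range, and the other 3 rose by more than it did. The difference was 2.87 ± 0.51 in the 4 pairs (adjusted p = 0.0277), against an adjusted p of 0.238 in the 36-array fit. Of the 19 genes of uptake and activation, 8 rose (42.1%, against 9.42% of all genes). They included FABP3, a fatty acid binding protein, by 2.12 ± 0.44 and ACSS2, which activates acetate, by 1.95 ± 0.32. SLC27A1, a fatty acid transport protein, was the 1 that fell, at −1.32 (5.26% of the list, against 4.56% of all genes). Of 25 genes of synthesis and desaturation, 7 rose (28%) and none fell. SCD, the Δ9 desaturase, went from 2.97, 2.40, 3.39 and 5.04 to 5.10, 5.88, 5.69 and 6.31, by 2.30 ± 0.34 (adjusted p = 0.0235), and its 7 probes gave 2.30 to 3.36. FASN, fatty acid synthase, rose by 1.57 ± 0.32 (adjusted p = 0.0332) and ELOVL1 by 1.09 ± 0.24. ACACA, the carboxylase before FASN, had a difference of 1.58 ± 0.40 and missed the threshold (adjusted p = 0.0506). On the quantile scale 3 of the 8 uptake genes and 4 of the 7 synthesis genes were still called. ACSS2 was among them (adjusted p = 0.0386), while LPL (adjusted p = 0.0568), FABP3 (adjusted p = 0.128), SCD, FASN and ELOVL1 were not.

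In the list of 16 triacylglycerol assembly genes, 6 rose in the 4 pairs (37.5%, against 9.42% of all genes) and none fell. Next to AGPAT9 they included LPIN1, a phosphatidate phosphatase, at 2.48 ± 0.39 (adjusted p = 0.0244), and GPAM, the mitochondrial glycerol-phosphate acyltransferase, at 1.95 ± 0.41. On the quantile scale 3 of the 6 were called, AGPAT9 and LPIN1 among them, and GPAM was not (adjusted p = 0.0858). DGAT1, which adds the last acyl chain, had a difference of 0.21 and was not called. Of 18 genes of the milk fat globule list, 12 rose (66.7%) and none fell. The list's median was 1.45, and 1.18, 2.21, 1.14 and 0.81 in animals 1 to 4. PNPLA3, a lipid droplet acylhydrolase, read −5.25, −5.56, −3.75 and −1.75 and then −1.30, 0.98, −0.38 and 0.65, a rise of 4.06 ± 0.63 (adjusted p = 0.024), 16.7-fold. In the 4 pairs BTN1A1 rose by 1.58 ± 0.32, XDH by 1.33 ± 0.24 and the transporter ABCG2 by 1.85 ± 0.46. None of these was called in the 36-array fit (adjusted p = 0.713, 0.247 and 0.328) or on the quantile scale (adjusted p = 0.112, 0.116 and 0.0769). The list's median was 0.98 on the quantile scale, where 3 of the 12 were called, and −0.38 with brightness as a covariate. Adipocyte markers also had mostly positive differences, but with the largest median in animal 1 rather than in animal 2. Of 15 measured, 14 had positive differences, and the median was 0.44, and 0.98, 0.76, 0.71 and 0.38 in animals 1 to 4. The 4 that rose (26.7%) were CIDEA by 1.65 ± 0.33, FABP4 by 1.30 ± 0.24, PCK1 by 0.99 (−0.0086 as the mean of its probes) and LIPE by 0.88. ADIPOQ, at 0.14, PLIN1, at 0.28, and LEP, at 0.39, were not called. Quantile normalization gave a median of 0.48, and PCK1 and LIPE were called. Their part in the rises of fat genes was not tested.

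Of the 17 genes of glucose uptake and lactose synthesis, 8 rose in the 4 pairs, which is 47.1% of the list against 9.42% of all genes, and none fell. SLC2A1, the main glucose transporter of the gland, went from 0.73, 0.46, 1.00 and 2.26 to 2.12, 2.74, 2.38 and 2.89, by 1.42 ± 0.27 (adjusted p = 0.0306). B4GALT1, the catalytic subunit of lactose synthase, rose by 1.09 ± 0.25, and the carrier of UDP-galactose into the Golgi, SLC35A2, was also called. After quantile normalization 2 of the 8 were called, one of them SLC35A2, while SLC2A1 stood at 1.24 (adjusted p = 0.0518), B4GALT1 at 0.50 (adjusted p = 0.228) and LALBA at 0.39. Of the 12 genes of ketone body and acetate use, 3 rose (25%): ACSS2, OXCT1 by 1.29 ± 0.23 and AACS by 1.10 ± 0.24. After quantile normalization ACSS2 was called (adjusted p = 0.0386), and OXCT1 (adjusted p = 0.0502) and AACS (adjusted p = 0.0592) were not. The list's median was 0.61 for the lactose genes, 0.39 on the quantile scale, and 0.50 for the fuel genes.

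Amino acid carriers changed in both directions. SLC7A5, the leucine exchanger, read −0.39, −0.43, −0.20 and 0.98 at day +1 and 1.84, 2.28, 2.12 and 3.66 at day +15. Every animal rose, and the difference of 2.49 ± 0.16 had an adjusted p of 0.0131 in the 4 pairs and 0.022 on the quantile scale. SLC1A5, a glutamine carrier, went from −0.45, −1.97, −0.55 and 1.81 to 1.78, 2.61, 2.04 and 3.17, by 2.69 ± 0.49 (adjusted p = 0.0284). SLC6A14, a carrier with broad range, fell instead, from 1.05, 0.74, 1.51 and −1.98 to −1.18, −3.38, −1.37 and −3.98, by −2.81 ± 0.36 (adjusted p = 0.0204). Of the 27 carriers measured, 6 rose (22.2%, against 9.42% of all genes) and 4 fell (14.8%, against 4.56%). Of the 23 aminoacyl tRNA synthetase genes, which charge tRNAs, 7 rose (30.4%) and none fell. The rises were led by TARS at 1.26 ± 0.19, GARS at 1.11 ± 0.16 and MARS at 1.04 ± 0.19. These 3 and 1 other were called again on the quantile scale, where the list's median was 0.44 against 0.57.

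Of the 83 cytosolic ribosomal protein genes, 72 rose in the 4 pairs (86.7%, against 9.42% of all genes) and none fell. Differences were 0.64 to 1.72 among those called, and the list's median was 0.84. RPL7 read 5.23, 4.94, 4.95 and 5.72 and then 6.38, 6.28, 6.34 and 6.79. On the quantile scale the direction of the list was lost: its median was −0.04, and 1 gene, the retrogene RPL10L, was called. The list has 79 of its 83 genes in the top bin by level. The 84 subunits of oxidative phosphorylation had 33 rises (39.3%), a median of 0.66 and, on the quantile scale, a median of 0.29 with 1 call. Leading members were CYCS, cytochrome c, at 1.18 ± 0.24, NDUFA5 at 1.11 ± 0.21 and UQCRB at 1.09 ± 0.20. Of 75 mitochondrial ribosomal proteins 8 rose, a share near the 9.42% of all genes, and 1 of the 8 was called on the quantile scale. Their median was 0.35, and 0.18 on that scale.

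In the secretory pathway, 19 of 48 genes rose (39.6%, against 9.42% of all genes) and none fell (median 0.71). Quantile normalization gave a median of 0.42, and 2 of the 19 were called. SPCS3, of the signal peptidase, rose by 1.26 ± 0.22, SSR4, of the translocon, by 1.17 ± 0.24, and the COPII coat gene SEC23B by 1.09 ± 0.21. After quantile normalization SPCS3 was called at 0.94 (adjusted p = 0.0412), and SSR4, at 0.29 (adjusted p = 0.361), and SEC23B, at 0.81 (adjusted p = 0.0581), were not. Of the 28 genes of the unfolded protein response, 10 rose (35.7%, median 0.75), and on the quantile scale 3 of those 10 were called (median 0.35). ATF4, the factor that drives amino acid synthesis and transport genes under stress, read 3.57, 3.33, 3.61 and 4.34 and then 4.73, 4.79, 4.60 and 5.43, a rise of 1.18 ± 0.15 (adjusted p = 0.0211). ASNS, asparagine synthetase, rose by 1.23 ± 0.21, and XBP1 by 0.85 ± 0.19. ASNS kept its call on the quantile scale at 1.01 (adjusted p = 0.0478), while ATF4, at 0.56 (adjusted p = 0.0695), and XBP1, at 0.34 (adjusted p = 0.237), did not. Of 47 proteasome genes 2 were called, or 4.26%, below the share of all genes, and none on the quantile scale, where the median went from 0.40 to 0.07. Of 52 translation initiation factors 7 were called, or 13.5%, among them EIF4E, which binds the mRNA cap, at 0.93 ± 0.16. After quantile normalization 2 of the 7 were called, and their list's median went from 0.29 to 0.02.

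**Figure D4:**
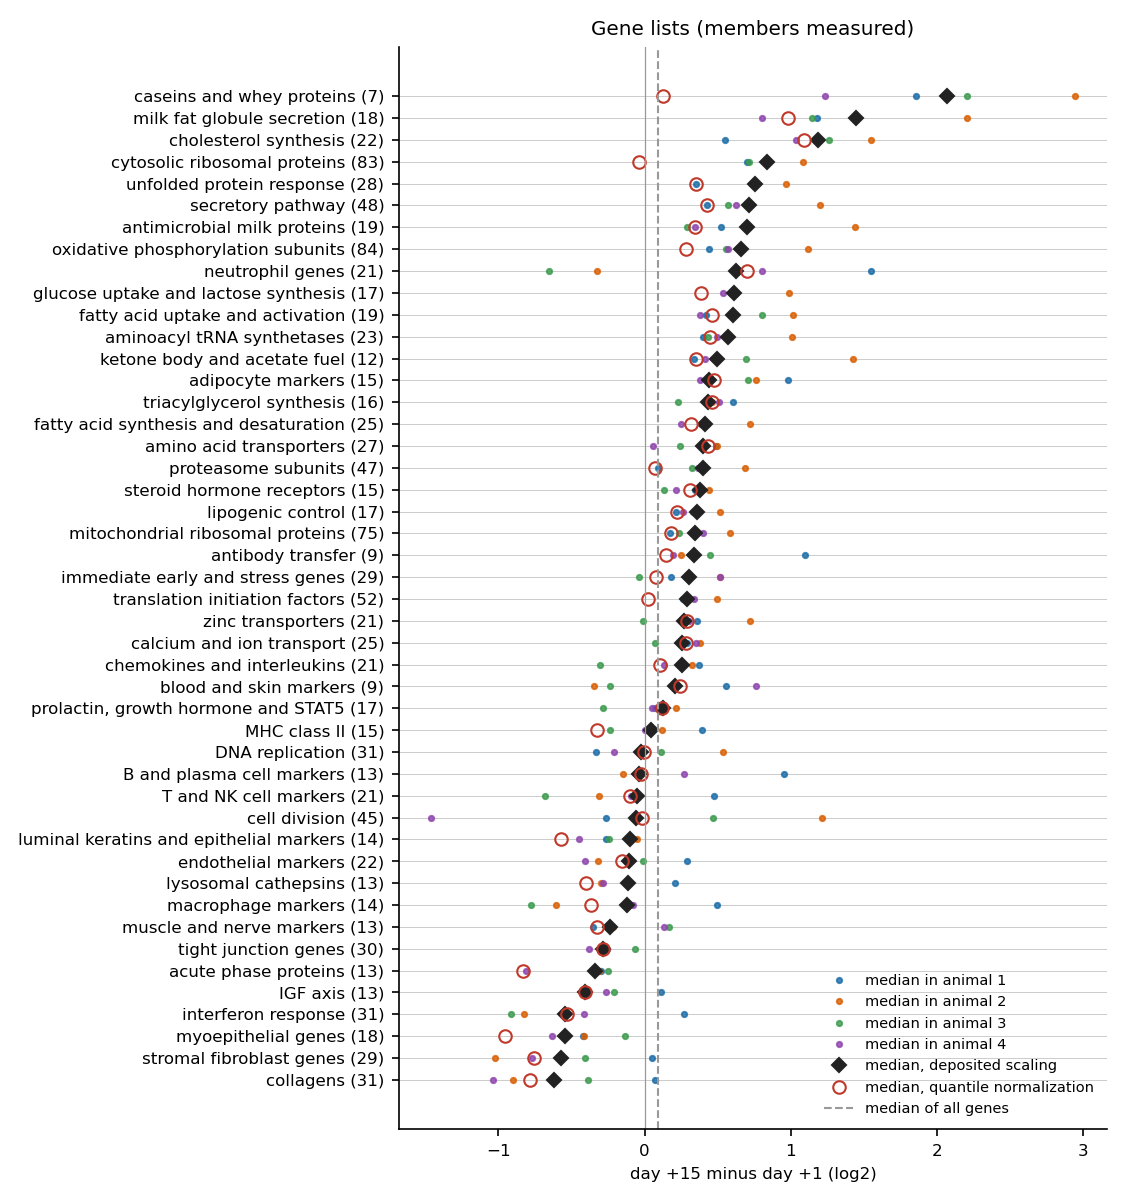
Median day +15 minus day +1 difference (log2, horizontal axis) of each gene list, with the number of members measured in parentheses. Black diamonds give the deposited scaling, open red circles quantile normalization, coloured points the median in each of the 4 animals, and the dashed line the median of all genes (0.09). Casein and ribosomal protein lists move from 2.07 and 0.84 to 0.13 and −0.04 between the scalings, while cholesterol synthesis stays at 1.18 and 1.09.

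PTHLH, the parathyroid hormone-related protein that the lactating gland releases to mobilise bone calcium, had one of the largest differences. It read 0.05, −0.38, 0.48 and 3.03 at day +1 and 3.80, 4.51, 4.55 and 4.91 at day +15. Animals 1 to 3 started near 0, and animal 4 started far above them. The rise was 3.65 ± 0.46 in the 4 pairs (adjusted p = 0.0204), 12.5-fold. In the 36-array fit its adjusted p was 0.0655, and 0.0238 without the day +1 array of animal 4. ATP2B2, the calcium pump of the apical membrane, went from −5.21, −4.18, −5.31 and −1.37 to −2.23, −0.93, −2.07 and −0.74, by 2.52 ± 0.46 (adjusted p = 0.0288). TRPV6, an epithelial calcium channel, fell by 1.98 ± 0.34. Of the 25 genes of calcium and ion transport, 3 rose (12%) and 1 fell (4%), near the 9.42% and 4.56% of all genes. Among the 21 zinc transporters, 6 rose (28.6%) and 2 fell (9.52%), and 1 of the 6 and both falls were called on the quantile scale. SLC30A2, which loads zinc into secretory vesicles, rose by 2.40 ± 0.59 (adjusted p = 0.0478), and SLC30A4 by 1.27 ± 0.28. Neither was called on the quantile scale (adjusted p = 0.0618 and 0.0535).

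Few receptors and factors of lactation control passed a test beside ERBB3. PRLR, the prolactin receptor, read 0.61, 0.59, 0.78 and 0.30 at day +1 and −0.52, 0.01, −0.86 and 0.17 at day +15, a difference of −0.87 ± 0.27 in the 4 pairs that was not called (adjusted p = 0.0759). The 2 PRLR probes gave −1.43 and −0.87. STAT5A, the transcription factor that prolactin activates, differed by 0.20 ± 0.39. ELF5, a factor of the secretory lineage, rose from 4.13, 3.54, 3.85 and 4.84 to 4.78, 5.16, 4.90 and 5.73, by 1.05 ± 0.20 (adjusted p = 0.0296), but by 0.43 on the quantile scale (adjusted p = 0.17). Of the 17 genes of the list, ELF5 alone rose and ERBB3 alone fell in the 4 pairs. That is 5.88% each way, near the 9.42% and 4.56% of all genes. Of the 15 genes of the steroid hormone receptor list, none passed either test, with differences from −0.45 (PGR) to 1.16 (TNFSF11). IGFBP2 and IGFBP5, which bind insulin-like growth factors, fell by 1.86 ± 0.27 and 1.77 ± 0.39. On the quantile scale IGFBP2 was called (adjusted p = 0.0356) and IGFBP5 was not (adjusted p = 0.0582).

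Defence and immune genes did not move as a block. CRISP3, a secreted protein of exocrine glands, had the largest difference of the listed genes: −4.07, −2.49, −4.06 and 0.88 became −1.28, 3.25, 1.26 and 3.88. The animals differed by several units at each day and the groups overlapped, yet every animal rose, and the difference of 4.21 ± 0.55 in the 4 pairs had an adjusted p of 0.021. LPO, lactoperoxidase, read 0.78, 0.41, 1.30 and 3.47 and then 2.91, 4.33, 3.61 and 4.66, a rise of 2.39 ± 0.42 (adjusted p = 0.0273). CHI3L1, a chitinase-like protein that marks involution and inflammation, fell from 4.19, 4.08, 3.56 and 2.49 to 1.40, 0.83, 1.01 and −0.71. The groups did not overlap, and the difference was −2.94 ± 0.18 (adjusted p = 0.0131, and 0.022 on the quantile scale). LTF, lactoferrin, read 4.67, 4.15, 4.56 and 3.84 and then 4.99, 4.17, 4.56 and 1.31. Only animal 4 was lower, and the difference of −0.55 ± 0.48 was not called. The 5 LTF probes gave −2.05 to −0.55. CD14 differed by 0.94 ± 0.32 (adjusted p = 0.0947).

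For antibody transfer, PIGR, which carries IgA and IgM across the epithelium, read 4.32, 3.99, 4.66 and 5.44 at day +1 and 5.57, 5.95, 5.61 and 6.58 at day +15, a rise of 1.33 ± 0.21 (adjusted p = 0.024) that was 0.52 and not called on the quantile scale. FCGRT, the neonatal Fc receptor that binds IgG, read 2.07, 1.91, 2.03 and 1.97 and then 1.91, 1.96, 1.57 and 1.35, a difference of −0.30 ± 0.17 that was not called. The 3 FCGRT probes gave −0.96 to −0.30. B2M, the light chain of that receptor, rose by 1.04 ± 0.16, and stood at −0.05 on the quantile scale. Of the 13 acute phase genes, 12 had negative differences and 3 fell (23.1%, against 4.56% of all genes). These were ORM1 by 2.78 ± 0.61, CFB, complement factor B, by 2.01 ± 0.15, and CP, ceruloplasmin, by 1.71 ± 0.32. CFB and CP were called again on the quantile scale, and ORM1 was not (adjusted p = 0.0521). CFB went from 3.06, 2.69, 2.78 and 1.66 to 1.10, 0.76, 0.88 and −0.57. Of 21 neutrophil genes, 4 rose (19%, against 9.42% of all genes), among them the cathelicidins CATHL2 at 1.73 ± 0.36 and CATHL6 at 1.52 ± 0.28. The list's mean level ranged from −2.38 to −2.03 at day +1 and from −2.65 to −0.33 at day +15, and its median difference was 1.55 and 0.80 in animals 1 and 4 and −0.33 and −0.65 in animals 2 and 3. The 9 blood and skin markers had medians of 0.56 and 0.76 in animals 1 and 4 and −0.34 and −0.24 in animals 2 and 3. The mean of the 3 red blood cell markers was −2.39 to 0.23 at day +1 and −2.85 to 3.97 at day +15, and none of the 3 was called. The part of blood in the neutrophil genes was not tested. None of 21 T and NK cell genes, from −0.55 (CD27) to 0.72 (GZMB), and none of 15 MHC class II genes passed either test. Of the 31 interferon response genes, 24 had negative differences, but 2 fell and 2 rose in the 4 pairs. That is 6.45% each way, near the 4.56% and 9.42% of all genes. HERC6 rose by 1.42 ± 0.19 and OAS2, whose groups overlapped, by 1.20 ± 0.18. GBP4 was among the falls, at −1.08 ± 0.17, but only 1 of its 3 probes had that sign (highest 0.275).

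Of 18 myoepithelial genes, 15 had negative differences, 6 fell in the 4 pairs (4.56% of all genes did) and none rose. TAGLN, an actin-binding protein of contractile cells, read 4.57, 3.41, 4.71 and 3.90 at day +1 and 3.38, 1.95, 3.24 and 2.79 at day +15, a difference of −1.31 ± 0.15 (adjusted p = 0.0204). CNN1, calponin, fell by 1.28 ± 0.16, and KRT14, a basal keratin, by 1.14 ± 0.25. ACTA2, smooth muscle actin, differed by −0.11, and MYH11 by −0.02. On the quantile scale 10 of the 18 fell, and the list's median moved from −0.54 to −0.95. However, 15 of the 18 lie in the top bin by level, whose median that scaling took from 0.47 to 0.05. The larger fall on that scale therefore cannot be told apart from the scaling. Of 31 collagen genes, 8 fell (25.8%) and none rose, and all 8 also fell on the quantile scale. COL5A2 went from 1.79, 2.26, 2.65 and 1.76 to 0.95, 0.08, 1.64 and −0.19, by −1.49 ± 0.27 (adjusted p = 0.028). COL12A1 fell by 1.86 ± 0.41. With brightness as a covariate the collagen median was 0.04 and that of the stromal genes 0.05, and neither was negative. The main fibrillar collagens COL1A1, at −0.37, and COL3A1, at −0.14, were not called. Animal 1 did not share the collagen shift: the list's median was 0.07 in it and −0.90, −0.39 and −1.04 in the others. LOXL1 and LOXL2, which cross-link collagen and elastin, each fell by 1.46. Of the 29 stromal genes 6 fell (20.7%), while 1, the protease MMP3, rose by 1.15 (3.45%, against 9.42% of all genes). The 3 probes of LOXL2 ranged from −1.46 to −0.018.

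Among luminal epithelial genes outside secretion, KRT18 fell by 0.90 and CDH1, E-cadherin, by 0.62, while KRT8, at −0.47, and KRT19, at 0.64, were not called. CLDN4, a claudin of tight junctions, went from 2.49, 1.94, 1.88 and 0.35 to 1.09, 0.67, 0.72 and −1.87, by −1.51 ± 0.22 (adjusted p = 0.0235), and ELF3, an epithelial transcription factor, by −1.48 ± 0.18. With MARVELD3, at −1.56 ± 0.18, and CLDN6, at −0.88 ± 0.17, 3 of the 30 tight junction genes fell and none rose, which is 10% of the list against 4.56% of all genes.

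Cell division genes showed no common direction. The median of the 45 genes was −0.06, but it was −0.27, 1.21, 0.47 and −1.46 in animals 1 to 4, with an SD of 1.14 among animals. TTK and KIF15 rose by 0.96 ± 0.17 and 0.70 ± 0.16, while 3 of the 4 KIF15 probes went the other way. KIF20A, a kinesin of late mitosis, read −3.66, −4.36, −3.77 and −2.82 and then −4.52, −3.56, −4.22 and −5.69, a difference of −0.84 ± 0.55 that was not called. Animal 2 alone was higher at day +15. Of 31 DNA replication genes, 1 was called higher in the 4 pairs (3.23%, against 9.42% of all genes) and none lower.

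Of the 3 muscle markers, MYH2 was called. MYH2, the myosin heavy chain of fast muscle fibres, read 1.65, −2.86, 0.93 and −1.25 at day +1 and −3.06, −4.73, −4.62 and −5.32 at day +15, a fall of 4.05 ± 0.56 in the 4 pairs (adjusted p = 0.0234), although 1 of its 3 probes went the other way. The muscle markers CKM and ACTA1 had differences of −0.33 and −0.24 and were not called. The mean of the 3 muscle markers was −1.14 to 0.49 at day +1 and −2.24 to −1.28 at day +15. Its part in the falls of contractile genes was not tested.

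The step from day +1 to day +15 was set beside its neighbours in the same 36-array fit, which share the day +1 or day +15 arrays with it. From day −15 to day +1, 359 genes were called (1.79%), 103 higher and 256 lower, and from day +15 to day +30 only 3 (0.0149%), all higher. CXCL17 averaged −0.12 ± 0.40 (SD, n = 4) at day −15, 0.44 ± 1.39 at day +1, −3.26 ± 0.13 at day +15 and −2.19 ± 1.03 at day +30. ERBB3 stood at 2.24 ± 0.47, 3.01 ± 0.18, 0.98 ± 0.31 and 1.38 ± 0.97 on those days. PHGDH had fallen by 2.03 ± 0.36 from day −15 to day +1 (adjusted p = 0.00333) before its rise of 1.63. LALBA averaged 2.49 ± 1.15, 5.43 ± 0.90, 7.30 ± 0.39 and 5.45 ± 2.32, and CSN2 5.07 ± 0.17, 5.94 ± 0.76, 8.01 ± 0.16 and 6.28 ± 1.64. Both were near their day +15 level again at day +60, at 7.59 ± 0.27 and 8.0 ± 0.49.

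**Figure D5:**
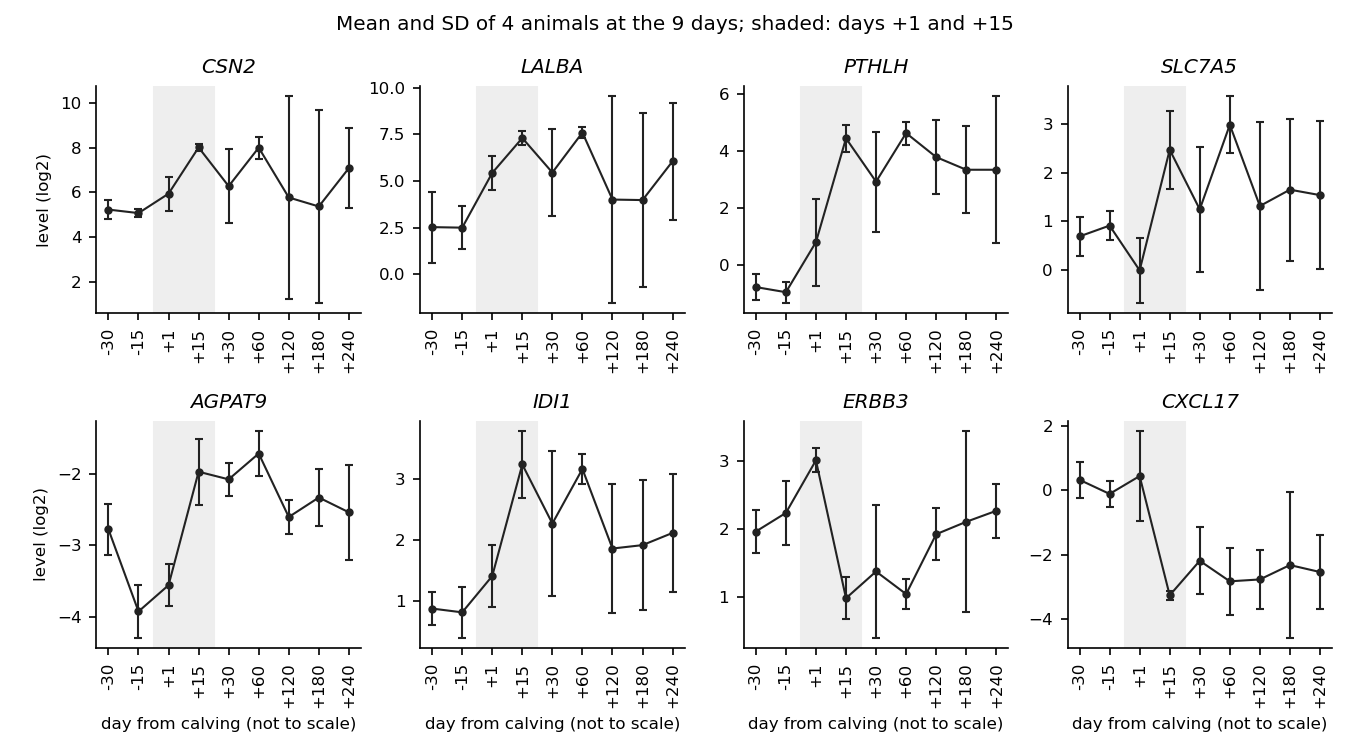
Mean level (log2, vertical axes) and SD of 4 animals at the 9 days (horizontal axes, evenly spaced and not to scale) for CSN2, LALBA, PTHLH, SLC7A5, AGPAT9, IDI1, ERBB3 and CXCL17, with days +1 and +15 shaded. CXCL17 falls from 0.44 to −3.26 and stays below its day +1 mean at all later days, while CSN2 and LALBA vary by several units among animals at days +120 and +180.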

How the data were processed

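Total RNA from mammary biopsies was labelled with Cy3 and hybridised to Agilent bovine arrays, per the labels' protocols. The deposited value table holds log2 values for 34997 probes in 36 columns. Set against the scanner files, each column was log2 of the processed intensity of 1 deposited array minus log2 of that array's 75th percentile (within 0.008), so the authors' scale is log2 and centred per array. The scanner files also gave the deposited flags of other kinds (spots well above background, outlier and saturated spots, with 0 saturated and 10 to 151 outlier spots per array), the slide and the gene names. Genes are named as in the array design, 1 probe per gene with the highest mean over 36 columns, and 11476 of 13027 symbols occur in the RefSeq table of the yak assembly Bosgru_T2T1.0. Arrays carry no count depth, so their number limits the precision.

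The tests used limma 3.58.1 under R 4.3.3 (lmFit, duplicateCorrelation, eBayes, consensus correlation of animal 0.0531, two-sided, Benjamini-Hochberg). The labels give the same 4 animals at each day, so the 4 pairs fit stands beside the main one. Deviations of the same animal from the 2 day means had r of 0.32, 0.05, 0.23 and 0.54 (mean 0.29). Between different animals the mean r was −0.09. Deviations from a day mean cancel over the 4 animals, so that value follows largely from the first and is no separate check. On simulated data over 20110 genes the 36-array fit recovered 25 of 100 genes changed by 1 and 80 of 100 changed by 2 (log2), the 4 pairs 2 and 57. In the real data the order was the opposite. The 36-array fit called 64 genes with a median SE of 0.31, and the 4 pairs called 2811 with a median SE of 0.19. The simulation therefore cannot tell which fit finds more of the true changes in these data.

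The 46 gene lists and the members were chosen with earlier results of these data known. Named genes are the 15 largest rises and falls among called genes with a symbol that changed alike in 4 of 4 animals and were above background on 3 of 4 arrays of the higher day, called list members, and 27 genes by name. Up to 3 members a list called in the 4 pairs, and members named without a call, were added after their values were seen. Alternatives were no block, a fixed block, the methods' model, a trended prior, median centring, quantile normalization, all probes, a detection filter, normexp (offset 50), brightness as a covariate, the scanner files' record and leaving out each animal. The alternatives without the day +1 array of animal 4, on days −30 to +30 alone, and on the 4 pairs after rescaling or without each pair were chosen after seeing the data. Some genes are not reported here. Figures were drawn with matplotlib.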

Additional observations from a re-analysis of the deposited data

Results flagged for a closer look

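In each of the 148 named genes the 4 animals of a day were compared, and 19 of 296 such groups held 1 animal far from the other 3 (Dixon's ratio above its critical value). Chance gives about 1 in 20 groups. Of these, 10 concerned animal 4 at day +1, whose array stood apart over all genes: CHCHD10 at 1.82 (others 1.33 to 1.39), TMEM128 at −0.71 (others −1.22 to −1.15), NIP7 at −3.90 (others −4.50 to −4.42), ITGAM at −4.79 (others −3.24 to −2.93), IDI1 at 2.17 (others 1.08 to 1.21), AACS at 2.21 (others 0.65 to 0.85), TRPV6 at −4.53 (others −2.74 to −2.40), SLC39A14 at 0.90 (others −0.77 to −0.59), SLC7A5 at 0.98 (others −0.43 to −0.20) and MARS at 1.64 (others 0.62 to 0.77). At day +15 the same animal stood apart for CAMK2N2 at −2.43 (others −3.69 to −3.61), TK1 at 4.20 (others 3.78 to 3.85), CLDN4 at −1.87 (others 0.67 to 1.09), CLDN6 at −3.70 (others −2.83 to −2.67) and PCK1 at −0.77 (others −2.42 to −2.38). Other animals did so for 4 genes. OAS2 read −2.83 (others −1.01 to −0.87) in animal 1 and KCNMB1 0.29 (others −0.34 to −0.27) in animal 3 at day +15. CD68 read 2.40 (others 1.20 to 1.33) in animal 2 and CYP51A1 −2.04 (others −0.65 to −0.40) in animal 3 at day +1.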

How the results depend on the processing

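Counts below are of genes called, higher and lower at day +15, at limma's adjusted p under 0.05 unless another model is named, against 64, 36 and 28 in the 36-array fit. Without the replicate block they were 22, 12 and 10, and with the replicate block on the 4 pairs alone 2811, 1894 and 917. The 8 arrays without the block gave 0, 0 and 0 (5718 at an unadjusted p under 0.05). Animal as a fixed block, the methods' model, a trended prior, the mean of all probes and the detection filter gave 64 to 72 genes, within 1.5 times the main count.

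Median centring gave 23, 13 and 10, and on the 4 pairs 3053, 2212 and 841. Quantile normalization gave 160, 82 and 78, and on the 4 pairs 1530, 893 and 637. Normexp gave 0, 0 and 0 (3208 unadjusted), and on the 4 pairs 6083, 5036 and 1047. The share of higher calls was therefore 67.4% in the 4 pairs and 72.5%, 58.4% and 82.8% after these 3 rescalings. The median of all genes was 0.15 after median centring, 0.05 after quantile normalization and 0.21 after normexp, against 0.09. Brightness as a covariate left 1, 0 and 1 (1751 unadjusted), and the scanner files' record 0, 0 and 0 (518 unadjusted). Chosen after seeing the data, days −30 to +30 alone gave 3014, 2055 and 959, and leaving out the day +1 array of animal 4 gave 475, 321 and 154. Leaving out each animal gave 0 to 15 genes, 0 to 6 higher and 0 to 9 lower, in the 36-array fit, and 0 to 362, 0 to 212 and 0 to 150 in the 4 pairs (14, 4 and 10 without animal 1). The cause of these changes was not tested. Slide as a block was not run, since each slide held 1 day.

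The direction of 3 of the 148 named genes turned after quantile normalization, in both fits: CSN2 −0.013, B2M −0.047 and RPS2 −0.45. With the mean of all probes PCK1 −0.0086 turned. Without animal 2 the value turned for STAT5A, −0.26 (−0.26 to 0.50 over the animals left out), and without animal 4 for LTF 0.11, in both fits. With brightness as a covariate 28 turned, the cause of which was not tested: CSN1S1 −0.90, CSN1S2 −0.95, CSN2 −1.14, LALBA −2.25, PAEP −0.42, LTF 0.092, LPO −2.09, FASN −0.13, ACACA −0.025, SCD −0.082, LPL −0.30, XDH −0.28, BTN1A1 −3.33, B4GALT1 −0.21, STAT5A −0.50, ELF5 −0.52, CD14 −0.21, OAS2 −0.10, CD68 0.25, FABP3 −0.97, LPIN1 −0.34, GPAM −0.49, ABCG2 −0.68, SLC30A2 −0.58, SLC30A4 −0.44, ASNS −0.15, KIF15 −0.023 and CIDEA −0.73. By the scanner files' record 111 turned, and 40 of the 64 called genes did. These were MST1R −0.062, FBXO10 −0.25, FGR −0.0060, CHCHD10 −0.18, HIGD1D −0.21, DHODH −0.093, TMEM128 −0.12, MMACHC −0.45, NIP7 −0.30, CXCL17 0.058, BNIPL 0.64, ERBB3 0.24, PAQR6 0.43, SESTD1 0.28, EEF2K 0.15, SH3D19 0.13, SERPINB1 0.078, MRPL33 −0.17, NDUFA12 −0.085, SRP19 −0.17, CSN1S1 −1.53, CSN1S2 −1.55, CSN2 −1.66, CSN3 −0.31, LALBA −1.85, PAEP −1.32, LPO −1.41, PIGR −0.56, FCGRT 0.11, FASN −0.98, ACACA −0.73, SCD −1.21, LPL −1.60, XDH −0.83, BTN1A1 −1.52, SLC2A1 −0.36, B4GALT1 −0.66, STAT5A −0.71, ELF5 −0.64, INSIG1 −0.86, PTHLH −0.85, ATP2B2 −0.87, CD14 −0.46, CHI3L1 0.67, B2M −0.67, ORM1 3.90, CFB 0.87, CP 1.17, CATHL2 −0.36, CATHL6 −0.38, CXCL11 −0.85, HERC6 −0.20, OAS2 −0.92, ITGAM 1.19, CD68 0.59, XBP1 −0.33, FABP3 −1.37, ACSS2 −0.54, ELOVL1 −0.13, LPIN1 −0.66, GPAM −1.51, PNPLA3 −1.01, ABCG2 −1.17, PPARGC1A −0.55, IDI1 −0.47, CYP51A1 −0.012, OXCT1 −0.17, AACS −0.19, IGFBP5 0.17, TRPV6 0.38, SLC30A2 −0.48, SLC30A4 −0.76, SLC6A14 0.012, SLC1A5 −0.74, SLC7A5 −0.22, TARS −0.47, GARS −0.092, MARS −0.20, RPL7 −0.59, RPS2 −0.97, MRPL35 −0.044, MRPL20 −0.16, CYCS −0.32, NDUFA5 −0.46, UQCRB −0.46, EIF4E −0.018, EIF2S2 −0.33, TRIB3 −0.90, ASNS −0.18, ATF4 −0.53, SSR4 −0.87, SEC23B −0.25, PSMB11 −0.84, PSMA7 −0.30, TTK −0.45, KIF15 −0.39, TK1 −0.25, COL5A2 0.057, LOXL2 0.016, TNC 0.40, ELF3 0.64, KDR −0.44, TIE1 0.31, CIDEA −1.21, FABP4 −0.49, CTSL1 0.25, DUSP2 −0.14, DUSP1 −0.54, HSPA8 −0.40, NEF3 0.56 and S100B −0.12. The arrays bear no depth beyond signal over background, and 117 genes were not well above background on 3 arrays of either day.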

Other observations

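Probes of the mitochondrial genome were not part of any list. All 52 had a positive difference, from 0.19 to 1.77 with a median of 1.01, but none was called by limma in a fit over all probes. The gene entry AB099120, whose probe lies at 1953 to 2010 of the mitochondrial chromosome and is annotated as similar to 16S rRNA, was called higher in the fit over genes (1.77 ± 0.40, adjusted p = 0.049). It was the only one of the 64 called genes whose sign turned after quantile normalization, to −0.19.

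Among the 64 called genes, 25 entries carried no gene symbol of the kind named above. The one with the greatest rise was TC461472, annotated as similar to the sialyltransferase ST6GALNAC3, at 4.78 ± 0.83 (adjusted p = 0.012). TC407807, annotated as similar to SH3D19, fell by 1.32 ± 0.26, beside the SH3D19 probe named above at −1.05. These 3 entries were chosen after their values were seen.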
